A study of Mus musculus with 12 samples.

Results

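The peaks of open chromatin named for 33 genes of glycolysis and of the response to low oxygen were followed in brain macrophages of bone marrow (BM) chimeric mice. ATAC-seq was used, in which a transposase cuts accessible DNA, so that the number of sequenced tags at a peak measures how open it is. A peak was taken as a member when the gene name given to it in a deposited table of merged peaks, that of the nearest transcription start site, was 1 of the 33 genes. This gave 165 of 60288 peaks in the untreated table and 155 of 54953 in the LPS table, for 32 of the 33 genes, and Aldoc had no peak in either. All mice were C57BL/6J and WT per the labels, were irradiated with 950 cGy and received donor BM, and were studied 9 months after the transfer per the study's text (the labels give 3.5 or 9 months without naming mice). Mice 4, 5 and 6 were untreated, and mice 1, 2 and 3 were injected with 2.5 mg/kg of lipopolysaccharide (LPS), an endotoxin of bacteria, 12 h before they were killed. From the brain of each mouse, graft-derived (CD45.1) cells and host (CD45.2) microglia were sorted into separate samples, which gave 4 groups of 3 libraries. The host microglia had themselves been irradiated, the graft cells had not, and neither population came from an unmanipulated brain.

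Glycolysis splits glucose into pyruvate. Glucose enters through transporters such as Slc2a1, hexokinases (Hk1, Hk2, Hk3) trap it, phosphofructokinases (Pfkl, Pfkm, Pfkp) commit it to the pathway, Pfkfb3 and Pfkfb4 tune phosphofructokinase through its activator fructose 2,6-bisphosphate, and lactate dehydrogenases (Ldha, Ldhb) interconvert pyruvate and lactate. Hif1a encodes the oxygen-labile subunit of the hypoxia-inducible factor, which the prolyl hydroxylases Egln1 and Egln3 mark for degradation and which induces glycolytic genes, Pdk1, Bnip3 and Vegfa by binding sites with the core ACGTG or GCGTG. Macrophages activated by LPS are known for a shift to glycolysis and for induction of Acod1, which makes itaconate from a Krebs cycle intermediate, and Nos2, which makes nitric oxide from arginine, while Arg1 hydrolyses arginine.

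Total depth was 8392878 to 9107770 tags in the untreated and 2966364 to 6556595 in the LPS libraries. The share of tags in merged peaks was 29.1 to 39.0% in 10 libraries, 26.3% in CD45.2 LPS mouse 1 and 18.4% in CD45.2 untreated mouse 4, which stands apart. In the untreated table, 20 of 34 tested peaks of 5 graft macrophage marker genes were more open in CD45.1 cells and 0 of 34 in CD45.2 cells, and 23 of 71 peaks of 8 microglia marker genes were more open in CD45.2 against 2 in CD45.1 cells. Of the markers of other cells, neuron peaks (6 of 7), endothelial peaks (6 of 13) and 1 of 7 astrocyte peaks were higher in untreated CD45.2 cells, while no promoter peak was listed there for the 6 neutrophil, 5 T cell, 3 B cell, 4 neuron and 3 endothelial markers. Other types were called in both directions or rarely. Of 25 untreated oligodendrocyte peaks, 4 were higher in CD45.1 and 5 in CD45.2 cells. For 4 T cell peaks these counts were 1 and 1, and for 2 neutrophil peaks 0 and 1. After LPS, neuron peaks (3 of 5) and 1 of 7 endothelial peaks were higher in CD45.2 cells, and 5 of 6 neutrophil markers had a peak, against 2 untreated, with 1 promoter peak whose tags were 5.66 to 19.3 in CD45.1 and 8.76 to 28.5 in CD45.2 cells. The summed astrocyte promoter tags were 24.4 to 53.2 in untreated CD45.2 and 10.3 to 16.4 in CD45.1 libraries. The part of other cells in the differences below was not tested. A difference between these sorted populations cannot tell fewer cells with an open site from less opening per cell.

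The sequences below are the peaks on which the results turn, from the mm9 genome on the plus strand, 5′ to 3′, in lower case. Capitals mark matches on either strand to ACGTG or GCGTG (hypoxia-response core), TGANTCA (AP-1), GGANTTTCC (NF-kappaB), TTGCNNAA (C/EBP) or GAGGAAG (PU.1), and bases in annotated exons were left out. The first pair shows the 2 start regions of Hif1a, of which the upstream differed between graft and host and the main did not pass the test.
Hif1a upstream start (chr12:75002276-75002361): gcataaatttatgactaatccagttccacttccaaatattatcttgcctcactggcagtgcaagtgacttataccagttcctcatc
Hif1a main start (chr12:75008746-75008890): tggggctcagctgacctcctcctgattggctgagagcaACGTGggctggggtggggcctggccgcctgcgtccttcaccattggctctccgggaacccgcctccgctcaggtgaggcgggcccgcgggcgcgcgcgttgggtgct
The next pair are distal peaks that were higher in untreated graft cells.
Hk3 distal (chr13:55141553-55141679): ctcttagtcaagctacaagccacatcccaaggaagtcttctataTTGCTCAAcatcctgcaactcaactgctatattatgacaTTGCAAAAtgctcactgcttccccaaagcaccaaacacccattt
Pfkl distal (chr10:77478369-77478493): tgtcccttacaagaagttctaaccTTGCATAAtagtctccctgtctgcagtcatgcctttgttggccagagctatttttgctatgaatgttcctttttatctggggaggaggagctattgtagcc
The following 3 are promoters that differed between graft and host.
Ldhb promoter (chr6:142456478-142456608): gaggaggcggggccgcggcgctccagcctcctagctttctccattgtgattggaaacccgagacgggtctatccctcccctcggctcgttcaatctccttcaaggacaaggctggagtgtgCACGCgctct
Pfkp promoter (chr13:6648024-6648132): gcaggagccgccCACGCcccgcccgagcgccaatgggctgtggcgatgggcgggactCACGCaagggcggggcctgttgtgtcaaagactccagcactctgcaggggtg
Bnip3 promoter (chr7:146101264-146101427): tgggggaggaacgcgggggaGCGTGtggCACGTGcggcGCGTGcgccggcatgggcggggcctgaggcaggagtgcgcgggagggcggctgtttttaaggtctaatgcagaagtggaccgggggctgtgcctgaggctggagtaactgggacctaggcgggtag
The last 2 changed with LPS in both populations (Arg1) or were listed only after LPS (Acod1).
Arg1 distal (chr10:24650063-24650221): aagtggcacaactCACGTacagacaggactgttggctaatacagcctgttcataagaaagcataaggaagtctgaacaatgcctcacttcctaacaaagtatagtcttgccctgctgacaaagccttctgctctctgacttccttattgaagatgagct
Acod1 promoter (chr14:103446049-103446193): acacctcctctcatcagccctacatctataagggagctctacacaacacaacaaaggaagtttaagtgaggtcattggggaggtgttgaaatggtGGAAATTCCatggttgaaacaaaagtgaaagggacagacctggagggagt
In the upstream Hif1a stretch no motif searched was found and the GC content was 39.5%, against 71.7% and 1 hypoxia core at the main start. The Hk3 and Pfkl distal peaks held 2 and 1 C/EBP matches, the Bnip3 promoter held 4 hypoxia-core matches over both strands (a palindromic core counts on each), and the Acod1 promoter held 1 NF-kappaB match. A match is a description of letters and not evidence of a bound factor.

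Promoter peaks, those that the table annotates as promoter-TSS, numbered 38 for 29 genes in the untreated and 42 for 32 genes in the LPS table. The rest, called distal here, numbered 127 and 113. Of these, 46 and 43 lay within their own gene in the GENCODE annotation, 13 and 10 only in another gene, and 68 and 60 between genes. Pfkfb3 (2 promoter and 17 distal peaks in each table), Hk2 (1 and 14 untreated, 1 and 13 LPS) and Hif1a (2 and 11 untreated, 2 and 10 LPS) had the most. Hk1, Hk3, Gpi1, Pfkl, Pfkm, Pfkp, Pfkfb4, Tpi1, Pgk1, Pgam1, Eno1, Slc2a1, Egln1, Egln3, Pdk1 and Bnip3 had 1 promoter peak in each table. Gapdh, Ldha, Ldhb and Arg1 had 1 in the untreated and 2 in the LPS table, while Pkm and Slc16a1 had 2 and 1, Slc16a3 had 2 and 3, Slc2a6 and Vegfa had 2 in each, and Aldoa had 3 and 1. Acod1, Nos2 and Eno2 had a promoter peak only in the LPS table, where Eno2's overlapped an untreated peak annotated otherwise. The stronger LPS promoter peak of Gapdh likewise overlapped an untreated peak that was not listed as a Gapdh promoter. A peak was tested when it held over 10 tags in at least 1 library, which left out 4 untreated and 9 LPS distal peaks and 1 LPS promoter peak (Slc16a3). Some called peaks passed through 1 population alone, so their adjusted p and intervals are descriptions. Untreated, these were the upstream Hif1a start and called distal peaks of Hk1, Hk3, Pfkl, Pfkm, Pfkp, Slc2a6, Hif1a and Nos2 (CD45.1) and Pfkfb3 (CD45.2). After LPS they were called distal peaks of Pfkp, Arg1 and Hk1 (CD45.1). Distances in bp are from the nearest annotated start, negative upstream. For Pfkfb3 they refer to different starts, so a peak with a positive distance can lie upstream of its GENCODE start.

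In untreated mice, most promoters of the pathway did not pass the test between populations, and the 23 called peaks fell on 14 genes. Some calls held whichever library was left out. Among these, graft cells were higher at a second Hif1a start and at peaks of Hk3, Pfkl, Pfkp, Pdk1 and Gapdh. Host cells were higher at Ldhb peaks and at a Hk2 peak. Calls at Pfkm, Slc2a6 and Bnip3, also higher in graft cells, were lost when single libraries were left out. With DESeq2 and an adjusted p under 0.05, 5 of 38 member promoters were higher in CD45.1 and 1 in CD45.2, where 2.74% and 2.27% of all promoter peaks were. Among distal peaks, 12 of 123 were higher in CD45.1 and 5 in CD45.2, where 10.2% and 7.48% of all distal peaks were, so neither share was above that of all peaks. The median log2 fold change (CD45.1 over CD45.2) was 0.12 over member promoters and -0.01 over distal peaks, against 0.05 and -0.04 over all peaks of the class. Past the study's own limit (adjusted p under 0.01 and over 4-fold) were 7 member peaks, and 6.43% of all tested peaks. Of the 23 calls, 16 held when the mouse was added as a block, edgeR called all 23, and 10 held whichever library was left out. edgeR called 20 higher and 14 lower in CD45.1, a more even split, and scaling by library totals called 9 higher, 2 lower and 2 promoters. The shares over all peaks above are those of the main DESeq2 fit, so these counts have no share beside them. The 17 higher calls became 7 without CD45.2 mouse 5, 8 without CD45.1 mouse 6 and 10 without CD45.2 mouse 6, the 6 lower calls became 3 without CD45.2 mouse 5, and without CD45.2 mouse 4, the library that stands apart, 14 and 6 were called.

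**Figure D1:**
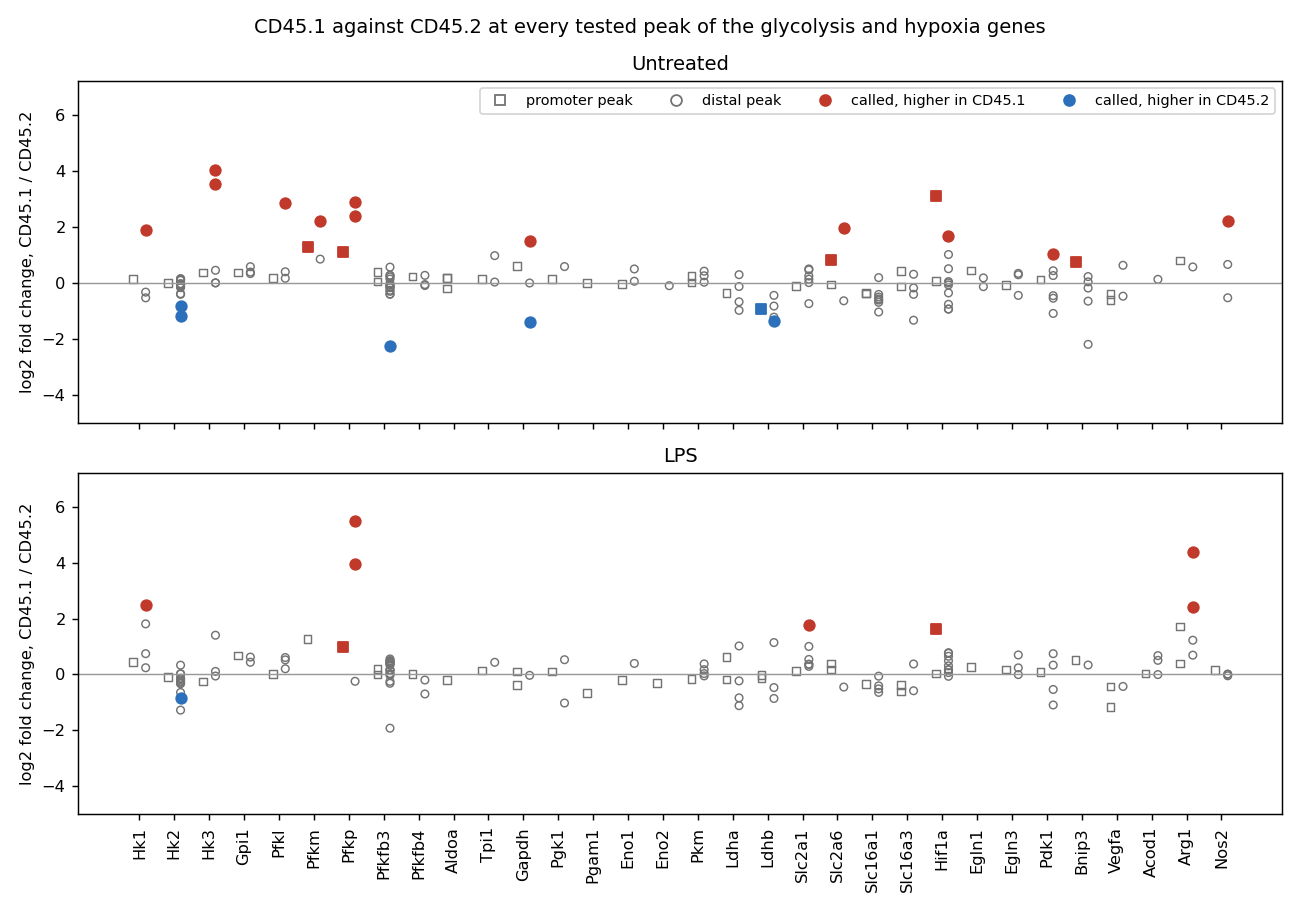
Log2 fold change of CD45.1 over CD45.2 (y axis) at every tested peak of each gene (x axis), untreated above and LPS below. Squares are promoter and circles distal peaks, filled where the adjusted p was under 0.05. Filled points are few, 23 untreated and 9 LPS, and sit at a minority of genes.

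Hexokinases came first. The distal Hk3 peak at -18870 bp, which lies in an intron of Uimc1, had 36.9, 45.18 and 47.9 normalised tags in CD45.1 mice 4, 5 and 6, and 1.64, 3.87 and 4.46 in CD45.2 cells of the same mice. The groups were far apart, and this was the member peak with the smallest adjusted p (log2 fold change 3.53 ± 0.54 SE, DESeq2 adjusted p = 6.14e-09). A second Hk3 peak at -3032 bp had 15.9, 16.4 and 28.3 tags in CD45.1 against 0.82, 1.55 and 2.03 in CD45.2 cells. With only 5 raw tags in all CD45.2 libraries, its ratio was 12.4 with a 95% exact counting interval of 5.03 to 39.5. Both Hk3 peaks passed the count filter through CD45.1 libraries alone, so these values are descriptions. Hk3 is the hexokinase found mainly in blood cells, and its promoter did not pass the test (68.0 ± 1.28 against 53.3 ± 1.25, SD, n = 3, adjusted p = 0.41). Hk2, the inducible hexokinase, went the other way at an intronic peak at +10225 bp, which had 65.8, 77.1 and 79.0 tags in graft and 124, 137 and 135 in host cells (log2 fold change -0.85 ± 0.19, adjusted p = 2.51e-04). Its promoter was among the most open of the list and overlapped between groups, with 177, 208 and 234 tags in graft and 236, 192 and 199 in host cells (adjusted p = 0.99). A Hk1 peak at +12742 bp (17.8 ± 2.87 against 5.41 ± 4.03) and a Hk2 peak at +23242 bp (15.1 ± 2.42 against 33.5 ± 7.77) were also called, but not with the mouse block (adjusted p = 0.081 and 0.14) nor without CD45.2 mouse 5 (0.31 and 0.24).

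Each phosphofructokinase gene had at least 1 called peak, higher in the graft, and not every peak of it passed. The Pfkl peak at -5890 bp had 29.9, 27.8 and 25.1 tags in graft and 2.46, 4.64 and 3.65 in host cells, a 7.22-fold difference (log2 2.85 ± 0.58, adjusted p = 2.73e-05), while the Pfkl promoter did not pass (134 ± 9.18 against 120 ± 12.6, adjusted p = 0.68). The Pfkp promoter had 111, 105 and 131 tags in graft and 60.6, 35.6 and 67.8 in host cells (log2 1.08 ± 0.24, adjusted p = 1.76e-04). Every CD45.1 library exceeded every CD45.2 library there. The Pfkm promoter was weaker, with 30.8, 32.0 and 33.2 tags against 18.03, 8.90 and 13.8 (adjusted p = 0.017, 0.098 with the mouse block and 0.24 without CD45.2 mouse 5). A peak at -3037 bp named for Pfkm, in an intron of Senp1, had 20.5, 18.7 and 31.0 against 4.10, 2.71 and 7.71 tags (log2 2.19 ± 0.58, adjusted p = 0.0021, 0.064 without CD45.2 mouse 5). At distal Pfkp peaks at -240870 and +15049 bp, CD45.1 mouse 6 held 49.6 and 22.3 tags where the other CD45.1 libraries held 7.30 to 13.99. Their adjusted p rose from 0.0043 and 0.013 to 0.36 and 0.64 without that library, and that of the second peak also to 0.51, 0.37 and 0.18 without CD45.1 mouse 4, CD45.1 mouse 5 and CD45.2 mouse 5. Of the regulators of the step, Pfkfb3 had 1 called peak of 16 tested distal ones, at +26865 bp, with 4.66, 6.85 and 4.36 tags in graft and 16.4, 36.4 and 24.4 in host cells (log2 -2.26 ± 0.55, adjusted p = 6.92e-04, 0.075 without CD45.2 mouse 5). Its stronger promoter peak had 136, 158 and 148 tags in graft and 155, 133 and 146 in host cells, which overlap (adjusted p = 0.94). The other promoter peak had 127, 132 and 133 against 102, 96.8 and 104 tags, which did not overlap but did not pass (adjusted p = 0.17).

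The lower pathway differed at Ldhb, whose isoform favours lactate oxidation. Its promoter had 76.5, 90.8 and 63.7 tags in graft and 159, 128 and 159 in host cells (log2 -0.94 ± 0.20, adjusted p = 6.54e-05), and an intronic peak at +3634 bp had 34.5, 48.4 and 18.5 against 84.4, 94.8 and 84.8 (log2 -1.37 ± 0.28, adjusted p = 3.95e-05). Host libraries were the higher at both, with no overlap. The Ldha promoter leaned the same way without passing, at 78.4, 74.8 and 71.9 tags in graft and 100.0, 93.7 and 97.0 in host cells (log2 -0.37 ± 0.21, adjusted p = 0.28). Around Gapdh, a peak over an annotated exon at +983 bp was higher in CD45.1 (42.9, 35.1 and 44.1 against 9.01, 17.03 and 15.0, adjusted p = 0.0014), and a peak at -3912 bp in an intron of Ncapd2 was higher in CD45.2 cells (30.3 ± 2.50 against 11.3 ± 4.22, adjusted p = 0.012, 0.066 with the mouse block, 0.13 without CD45.2 mouse 6). No peak of Gpi1, Aldoa, Tpi1, Pgk1, Pgam1, Eno1, Eno2, Pkm or Pfkfb4 was called. The strongest promoter of each of these genes but Eno2, which had none there, had group means of 104 to 185 tags, for example Eno1 with 179 ± 3.804 in CD45.1 and 185 ± 4.41 in CD45.2 cells (adjusted p = 0.92). Among transporters, the promoter of Slc2a6, a lysosomal hexose transporter of myeloid cells, had 105, 101 and 131 tags in graft and 81.9, 52.3 and 61.7 in host cells (log2 0.81 ± 0.22, adjusted p = 0.0036, 0.11 without CD45.2 mouse 5). A Slc2a6 peak at +2277 bp followed it (19.4 ± 9.05 against 4.67 ± 2.22, adjusted p = 0.014, 0.067 with the mouse block, 0.19 without CD45.1 mouse 6). The glucose transporter Slc2a1 was not called at any peak, and its promoter had 84.0, 85.8 and 73.0 tags in graft and 94.2, 74.7 and 98.2 in host cells (adjusted p = 0.83). The lactate and pyruvate carriers Slc16a1 and Slc16a3 had no called peak.

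Hif1a has 2 annotated protein-coding starts on chromosome 12, at 75002362 and 75008891 on the plus strand. The peak over the upstream start had 21.5, 27.8 and 53.9 tags in graft and 1.64, 4.64 and 4.46 in host cells, an 8.46-fold difference (log2 3.08 ± 0.58, adjusted p = 5.64e-06), whereas at the main start 201, 211 and 259 tags in graft and 257, 173 and 226 in host cells overlapped (log2 0.05 ± 0.16, adjusted p = 0.93). Within each library, the upstream start took 9.62, 11.6 and 17.2% of the raw tags of both starts in CD45.1 and 0.633, 2.62 and 1.93% in CD45.2 cells. This share, which needs no scaling between libraries, averaged 12.8% ± 3.95 against 1.73% ± 1.01 (SD, n = 3). It restates the tags of the called peak and is a description. An exact permutation test of the share gave p = 0.1 untreated and after LPS. That is the smallest value possible with 3 against 3 libraries, so nothing is read from it. A distal peak at -128198 bp, in an intron of Prkch, was also called (19.2 ± 11.8 against 5.71 ± 1.42, adjusted p = 0.041), but not with the mouse block (0.18) nor without CD45.1 mouse 6 (0.48). Of the genes that the factor induces, the promoter of Bnip3, a mitophagy receptor, had 132, 112 and 148 tags in graft and 99.1, 75.1 and 65.7 in host cells (log2 0.75 ± 0.21, adjusted p = 0.0038, 0.11 without CD45.2 mouse 6). Near Pdk1, which holds pyruvate back from the Krebs cycle, a peak at -29721 bp in an intron of Itga6 had 90.5, 110 and 96.4 against 41.0, 53.0 and 49.9 tags (log2 1.02 ± 0.23, adjusted p = 2.14e-04), while the Pdk1 promoter did not pass (168 ± 15.7 against 159 ± 47.8). Vegfa, Egln1 and Egln3 had no called peak, and the stronger Vegfa promoter peak had 29.4, 31.5 and 28.3 tags in graft and 41.8, 35.6 and 41.0 in host cells (adjusted p = 0.52).

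**Figure D2:**
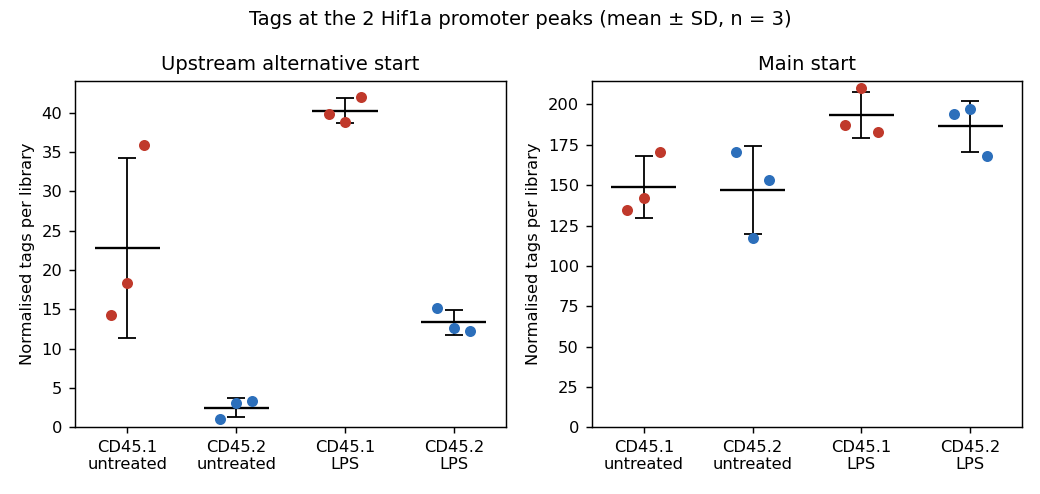
Normalised tags per library (y axis) at the upstream and the main Hif1a start in the 4 groups, from the fit over all 12 libraries. Points are libraries, bars the mean ± SD of 3. At the upstream start the CD45.1 libraries lie above the CD45.2 libraries of the same treatment, and at the main start the groups of each treatment overlap.

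Of the arginine and itaconate genes, Arg1 had 1 untreated promoter peak, with 25.7, 29.2 and 19.1 tags in graft and 13.9, 15.9 and 15.0 in host cells, which did not overlap but did not pass (adjusted p = 0.25). A Nos2 peak at -4197 bp had 5.13, 14.2 and 20.2 against 4.10, 1.16 and 4.06 tags (adjusted p = 0.035, 0.13 with the mouse block, 0.27 without CD45.2 mouse 5). The single untreated Acod1 peak, in its last intron, did not pass.

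Tags were also summed over all peaks of a gene. The sums hold the same tags as the peaks above and are not a second line of support. Of 29 member promoters, the sums of Pfkp, Bnip3 and Pfkm were higher in CD45.1 and that of Ldhb in CD45.2 cells, 4 in all, with 5.17% of all genes' promoter sums called. Each of these 4 sums holds 1 peak and so repeats its call. Of 30 distal sums, those of Hk3, Pfkp, Pfkm and Pfkl were higher in CD45.1, and those of Ldhb and Slc16a1 (136 ± 11.5 against 193 ± 9.94 tags over 7 peaks, adjusted p = 0.014, 0.11 with the mouse block) in CD45.2 cells, with 19.9% called over all genes. With the mouse block 6 of these 10 sums were called.

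After LPS, 9 of 145 tested member peaks were called. The share called over all peaks was also lower than in the untreated table and the libraries were shallower, so nothing is read from the smaller count. Pfkp, the upstream Hif1a start and a Hk1 peak were again more open in graft cells, and a Hk2 peak was again more open in host cells. The Hk1 peak, at +12706 bp, overlapped the untreated call at +12742 bp. Distal peaks of Arg1 and Slc2a1, genes with no untreated call, were also higher in graft cells. No peak of Ldhb or Hk3 was called by DESeq2. The LPS peak overlapping the untreated Hk3 peak at -18870 bp had 15.0, 16.3 and 10.85 tags in graft cells. In host cells it had 1.75, 5.23 and 7.42 tags (DESeq2 adjusted p = 0.22, edgeR 0.048). Of 41 tested promoters, 2 were higher in CD45.1 (1.09% of all promoters) and 0 in CD45.2 cells (1.09%). edgeR called 5 member promoters, and its share over all promoters was not counted. Of 104 distal peaks, 6 were higher in CD45.1 (5.04% of all) and 1 in CD45.2 cells (2.8%). The median log2 fold change was 0.04 over promoters and 0.17 over distal peaks, against -0.04 and 0.01 over all peaks. Past the study's limit were 2 member peaks, both of Pfkp, and 2.97% of all peaks. With the mouse block 2 of the 9 calls held, both distal Pfkp peaks, and edgeR called all 9. The 8 higher calls became 1 to 5, and the lower call was lost, whichever library was left out. Scaling by library totals gave 11 higher and 0 lower calls and moved the median of all peaks by 0.14.

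The smallest adjusted p values were at peaks inside Pfkp. The intronic peak at +16128 bp had 14.6, 13.1 and 17.9 tags in graft and 0.88, 0 and 0.59 in host cells of mice 1, 2 and 3 (DESeq2 adjusted p = 9.89e-04, 0.0031 with the mouse block). On 47 raw tags against 1.5, the ratio was 34.8 with a 95% exact counting interval of 6.83 to 222. This peak and the next passed the count filter through CD45.1 libraries alone, so their adjusted p and intervals are descriptions. The neighbouring peak at +15165 bp had 9.30, 9.78 and 17.9 against 0, 0.44 and 1.78 tags, a ratio of 12.1 with an interval of 3.799 to 40.7 (adjusted p = 0.0070, 0.090 without CD45.2 mouse 2). The Pfkp promoter had 80.1, 78.3 and 118 tags in graft and 68.3, 40.1 and 36.8 in host cells, again without overlap (log2 1.00 ± 0.28, adjusted p = 0.011, 0.11 with the mouse block, 0.23 without CD45.1 mouse 3). The upstream Hif1a start had 27.1, 26.1 and 27.8 tags in graft and 9.63, 8.29 and 8.61 in host cells (log2 1.61 ± 0.46, adjusted p = 0.011, 0.096 with the mouse block, 0.13 without CD45.2 mouse 3). Its share of the tags of both starts was 17.4, 15.7 and 18.4% against 6.67, 5.74 and 7.02% (means 17.1% ± 1.36 and 6.48% ± 0.66, SD, n = 3), and the main start again overlapped (131 ± 8.50 against 128 ± 12.4 tags).

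Arg1 had a peak at -4236 bp with 10.9, 14.4 and 24.1 tags in graft and 0, 5.23 and 2.97 in host cells (log2 2.42 ± 0.71, adjusted p = 0.014, 0.051 with the mouse block, 0.24 without CD45.1 mouse 3). A far peak at -124660 bp held 22.5 raw tags against 1 (5.26, 7.18 and 9.91 against 1.75, 0 and 0 normalised, adjusted p = 0.031, 0.29 without CD45.2 mouse 3). It passed the count filter only through CD45.1 mouse 3, with 10.5 raw tags, and is given as a description. Summed over its 4 distal peaks, Arg1 had 119 ± 27.7 tags in graft and 59.5 ± 6.27 in host cells (adjusted p = 0.0013, 0.039 with the mouse block, the only one of 4 called sums to keep its call with the block). The other called sums were the distal sum of Hk1 and the promoters of Pfkp and Gpi1, 2 of 27 distal and 2 of 32 promoter sums, where 9.78% and 2.35% of all genes' sums were called. Both promoter sums hold 1 peak each. The Gpi1 promoter was at the limit, with a DESeq2 adjusted p of 0.045 as a sum and 0.054 as a peak. In an intron of Slc2a1 a peak at +17329 bp had 19.8, 19.6 and 27.8 against 3.50, 8.72 and 6.53 tags (adjusted p = 0.019, 0.094 with the mouse block, 0.20 without CD45.1 mouse 3). The Hk1 peak at +12706 bp had 13.8, 14.4 and 9.44 against 1.75, 0.87 and 3.27 (adjusted p = 0.034, 0.29 without CD45.2 mouse 2), and the Hk2 peak at +10156 bp was the one higher in host cells, with 43.3, 46.3 and 31.6 against 81.4, 77.6 and 63.5 tags (adjusted p = 0.035, 0.30 without CD45.1 mouse 3). The promoters of Ldha (53.4, 60.7 and 37.7 against 63.9, 56.7 and 52.0), Hk2 (126, 125 and 95.8 against 144, 128 and 106), Slc2a1 (49.7, 62.0 and 51.4 against 44.7, 49.7 and 52.6) and Pfkfb3 (125, 106 and 105 against 102, 108 and 84.3) overlapped between CD45.1 and CD45.2 libraries, and their adjusted p was 0.76 to 0.91. The Vegfa promoter peak had 12.9, 9.78 and 8.02 against 9.63, 18.3 and 12.5 tags (adjusted p = 0.81).

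To compare LPS with no treatment, each untreated peak was paired with the 1 LPS peak it overlapped by at least 50% reciprocally, which gave 110 member pairs (34 promoter and 76 distal), and 1 model was fitted to all 12 libraries. LPS and untreated libraries come from different mice and from peak sets that were called and merged apart, with median widths of 167 and 132 bp, so treatment cannot be told apart from mouse and table. In both populations, peaks of Bnip3, Pfkfb3, Pfkp, Gpi1, Arg1, Hif1a, Slc2a1, Pfkl and Nos2 were called higher in the LPS libraries. Some of these calls, such as those of the Pfkp promoter, were lost with width scaling. In CD45.1 cells 19 of 110 peaks rose and 4 fell, with 12.5% and 7.41% of all matched peaks doing so. In CD45.2 cells 23 rose and 4 fell, with 11.6% and 5.01% over all. Of these, 14 rose in both (14 of 19 and 14 of 23), 1 fell in both, and none was called in opposite directions. Calls shared by both populations were not counted over all matched peaks, so nothing particular to these genes is read from them. The median log2 change was 0.09 over member promoters and 0.21 over distal peaks in CD45.2 cells (0.06 and -0.05 over all matched peaks of the class), and 0.00 and 0.19 in CD45.1 cells (0.03 and -0.02). With tags scaled by peak width, 17 of 23 and 16 of 27 calls held. Scaling by library totals gave 10 higher and 0 lower calls in CD45.1 and 10 and 1 in CD45.2 cells, where it moved the median of all peaks by -0.14. Without CD45.2 untreated mouse 5 the 23 higher calls in CD45.2 cells became 12, without CD45.2 LPS mouse 2 they became 14, and without CD45.2 untreated mouse 4 they were 20.

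The Bnip3 promoter is given first. It rose from 88.4, 75.3 and 97.5 tags in untreated to 191, 222 and 182 in LPS CD45.1 libraries (log2 1.18 ± 0.18, adjusted p = 5.06e-09) and from 65.3, 51.1 and 44.5 to 141, 150 and 117 in CD45.2 libraries (log2 1.36 ± 0.20, adjusted p = 3.72e-10). No LPS library overlapped the untreated ones of its population. The paired Bnip3 peaks were 164 bp wide untreated and 302 bp wide after LPS. These values are not scaled by width, so the size of the rise is not given apart from it. The Pfkfb3 promoter rose from 90.9, 106 and 97.5 to 180.5, 157 and 155 in CD45.1 (log2 0.75 ± 0.17, adjusted p = 1.73e-04) and from 102, 90.6 and 98.9 to 146, 157 and 124 in CD45.2 cells (log2 0.54 ± 0.17, adjusted p = 0.013, but 0.13 with width scaling and 0.14 without CD45.2 LPS mouse 2). Its peak at +18297 bp rose from 92.7, 82.0 and 84.6 to 184, 198 and 159 in CD45.1 cells (log2 1.06 ± 0.18, adjusted p = 2.11e-07), and the peak at -11159 bp from 27.4, 18.4 and 17.9 to 63.3, 48.6 and 67.2 (log2 1.5 ± 0.29). Both lie upstream of the GENCODE start of Pfkfb3. In CD45.2 cells these peaks rose by 0.56 ± 0.18 and 1.05 ± 0.28 on the log2 scale, but the first call was lost when single libraries were left out (adjusted p = 0.19 without CD45.2 LPS mouse 2, 0.15 without CD45.2 untreated mouse 5 and 0.095 without CD45.2 untreated mouse 6), and the second without CD45.2 untreated mouse 5 (0.065). The Pfkp promoter rose from 76.4 ± 8.49 to 136 ± 33.8 in CD45.1 and from 36.9 ± 11.3 to 70.2 ± 24.4 in CD45.2 cells, and neither call held with width scaling (adjusted p = 0.069 and 0.10). The calls were also lost without CD45.1 LPS mouse 3 (0.12), and without CD45.2 LPS mouse 1 (0.13) or CD45.2 untreated mouse 5 (0.16).

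Other peaks of the upper pathway and of Hif1a are given next. The Pfkl peak at -5890 bp, nearly closed in untreated host cells (2.18, 3.16 and 2.20 tags), had 25.2, 30.3 and 33.3 there after LPS (log2 3.56 ± 0.51, adjusted p = 3.36e-10), and went from 19.9, 18.4 and 16.5 to 42.2, 50.5 and 47.6 in graft cells (log2 1.34 ± 0.31, adjusted p = 3.71e-04). In host cells the Pfkp peak at -240870 bp went from 4.35, 2.11 and 3.30 to 53.0, 20.2 and 29.8 tags (log2 3.41 ± 0.59). The upstream Hif1a start went from 1.09, 3.16 and 3.30 to 15.1, 12.6 and 12.2 tags in CD45.2 cells (log2 2.24 ± 0.57, adjusted p = 0.0014), and from 14.3, 18.4 and 35.8 to 39.9, 38.9 and 42.0 in CD45.1 cells, which did not pass (log2 0.83 ± 0.37, adjusted p = 0.088). A Hif1a peak at -20712 bp rose in both, from 8.57 ± 3.35 to 31.9 ± 3.59 and from 4.32 ± 0.094 to 23.6 ± 11.4 tags. Gpi1, the isomerase after hexokinase, had a peak at +15529 bp that rose from 29.2, 34.3 and 31.5 to 72.7, 85.5 and 72.7 in CD45.1 and from 28.3, 25.8 and 23.6 to 68.1, 55.6 and 48.1 in CD45.2 cells (log2 1.27 ± 0.24 and 1.11 ± 0.26). Near Slc2a1 a peak at -2824 bp rose from 8.82 ± 3.57 to 34.3 ± 6.79 in graft (log2 1.98 ± 0.42) and from 8.70, 3.69 and 7.69 to 10.1, 15.2 and 22.8 tags in host cells (log2 1.42 ± 0.47, adjusted p = 0.021, 0.25 without CD45.2 LPS mouse 3 and 0.19 without CD45.2 untreated mouse 5).

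The Arg1 peak at -2866 bp rose in both populations, from 43.6, 53.9 and 37.3 to 89.1, 132 and 134 tags in CD45.1 (log2 1.38 ± 0.24, adjusted p = 3.52e-07) and from 39.2, 21.6 and 34.1 to 75.7, 77.1 and 64.8 in CD45.2 cells (log2 1.22 ± 0.26, adjusted p = 5.87e-05). A Nos2 peak at -4197 bp rose in host cells from 2.18, 1.05 and 2.75 to 15.1, 17.7 and 25.4 tags (log2 3.37 ± 0.65), and in graft cells its change did not pass (1.23 ± 0.48, adjusted p = 0.052). A peak at -33630 bp rose in host cells from 17.4, 13.2 and 17.6 to 40.4, 40.4 and 67.4 (log2 1.69 ± 0.32, and 1.07 ± 0.30 in CD45.1 cells, where the call was lost with width scaling and without CD45.1 untreated mouse 4). The 1 peak that fell in both was a Slc2a6 promoter peak at -819 bp, from 34.2, 55.1 and 53.0 to 32.8, 15.6 and 9.79 tags in CD45.1 (adjusted p = 0.0061, 0.11 without CD45.1 LPS mouse 3) and from 37.0, 56.9 and 55.0 to 17.7, 17.7 and 10.5 in CD45.2 cells. In CD45.1 cells the Pgam1 promoter fell by 0.86 on the log2 scale (from 106 ± 28.9 to 57.7 ± 8.03 tags, adjusted p = 0.28 with width scaling). The main promoters of Hif1a, Hk2 and Ldha had no called LPS change in either population.

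**Figure D3:**
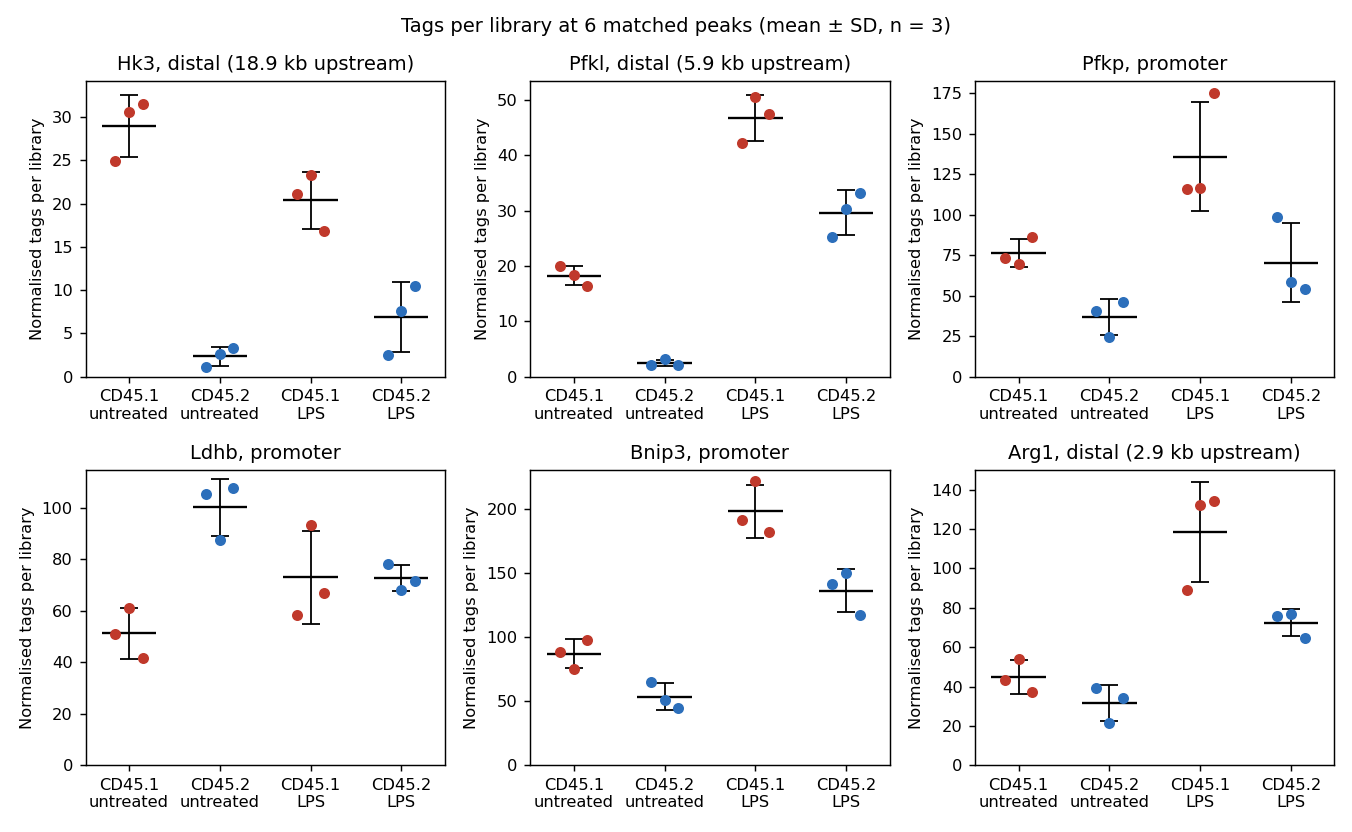
Normalised tags per library (y axis) in the 4 groups at 6 matched peaks, from the fit over all 12 libraries, with points for libraries and bars for the mean ± SD of 3. The Pfkl, Bnip3 and Arg1 peaks are higher in every LPS library than in the untreated ones of the same population, and the Ldhb promoter libraries of the 2 populations are apart without treatment and overlap after LPS.

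**Figure D4:**
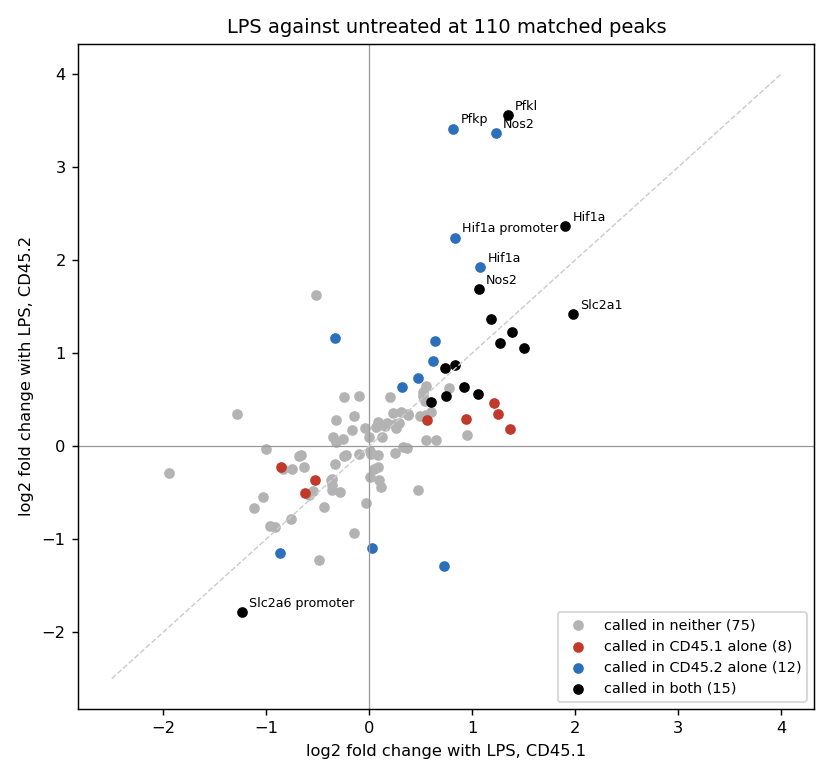
Log2 change with LPS in CD45.1 (x axis) against CD45.2 cells (y axis) at 110 matched member peaks, with called peaks coloured and the dashed line marking equal change. Points called in both populations (15) lie in the same direction, and the labelled Pfkl, Pfkp and Nos2 peaks at the top have the largest changes in CD45.2 cells.

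Whether the 2 populations responded differently was tested by the interaction of population and treatment. DESeq2 called 0 of 110 member peaks, against 0.242% of all matched peaks, and 11 of 110 had an unadjusted p under 0.05 where 2090 of all 39235 had. edgeR called 2. The smallest adjusted p was 0.074, at the Pfkl peak at -5890 bp, where the change in graft cells was smaller by 2.21 ± 0.60 on the log2 scale (edgeR 0.013, 0.48 with the mouse block). edgeR's other call was a Ldhb peak at -17118 bp (0.042, DESeq2 0.17), from 12.2 ± 2.51 to 20.3 ± 4.46 tags in CD45.1 and from 22.1 ± 3.05 to 9.23 ± 0.75 in CD45.2 cells. Without CD45.1 untreated mouse 5, DESeq2 called the Pfkp peak at -240870 bp (adjusted p = 0.026). The Ldhb promoter, which differed untreated and not after LPS, had an interaction of 0.94 ± 0.31 that did not pass (adjusted p = 0.34), and the adjusted p for the upstream Hif1a start was 0.86.

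Of the member peaks, 47 untreated and 37 LPS ones overlapped no peak of the other table, and most of these were weak, 28 and 19 having been listed in a single library's peak list. Peaks without an overlap were not counted over all peaks, so nothing particular to these genes is read from the numbers. Of the 37 LPS ones, 5 were listed in all 6 libraries. The Acod1 promoter had 26.3, 41.8 and 55.2 normalised tags in graft and 31.5, 28.4 and 56.4 in host cells of mice 1, 2 and 3. Its groups overlapped (log2 0.03 ± 0.36, DESeq2 adjusted p = 0.98). The others were Pfkfb3 peaks at +23669 bp (92.2 ± 25.8 in CD45.1, 65.2 ± 4.17 in CD45.2) and -22822 bp (46.3 ± 9.32, 33.3 ± 6.53), a Hif1a peak at -145423 bp (35.3 ± 13.2, 22.6 ± 4.36) and a second Ldhb promoter peak at -874 bp (31.1 ± 6.74, 34.4 ± 7.09), and none of them passed the test between populations. Both Pfkfb3 peaks lie upstream of its GENCODE start and overlap no gene in that annotation. The Nos2 promoter, also without an untreated overlap, had few tags, with 5.26, 2.61 and 17.9 tags in graft and 2.63, 5.67 and 13.1 in host cells. An Arg1 promoter peak at -440 bp had 8.49, 16.3 and 11.3 against 7.01, 2.62 and 2.37 tags and did not pass (adjusted p = 0.17).

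**Figure D5:**
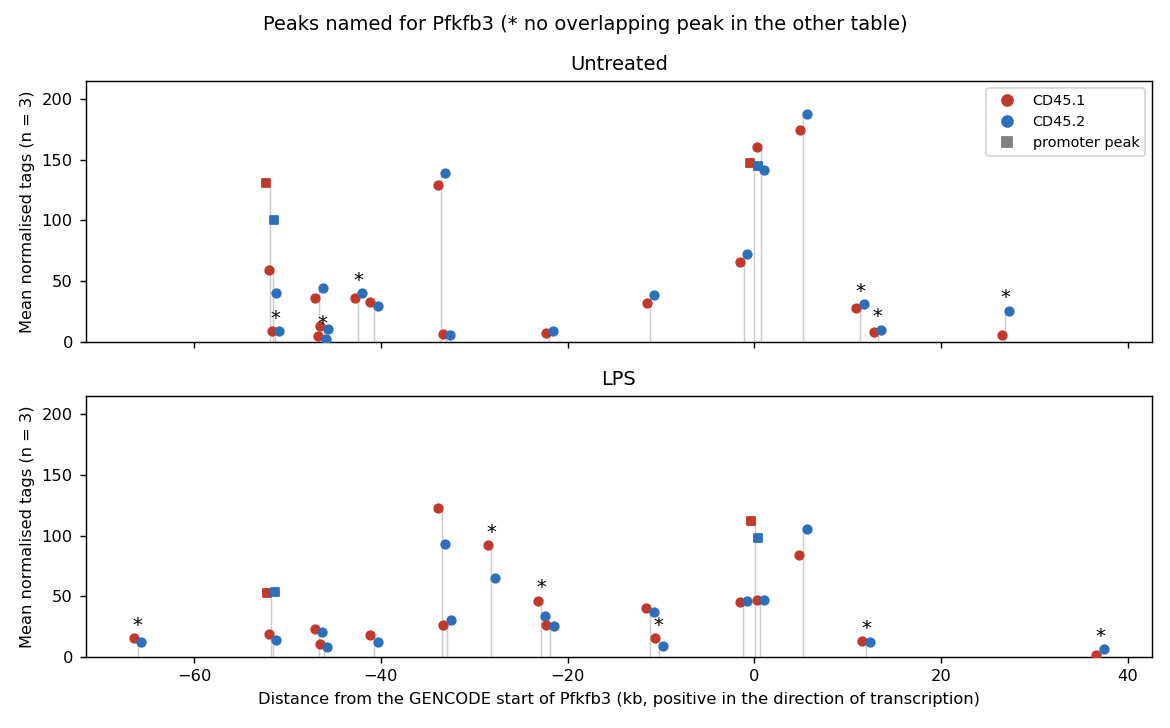
Mean normalised tags (y axis, n = 3) of every peak named for Pfkfb3 by its distance from the GENCODE start in kb (x axis), untreated above and LPS below, with red for CD45.1, blue for CD45.2, squares for promoter peaks and asterisks for peaks with no overlap in the other table. The strongest starred peak is in the LPS panel, upstream of the start, with means of 92.2 and 65.2 tags.

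Beyond the members, 51 further genes of sugar metabolism and the hypoxia response were read the same way. Untreated, 1 of 38 promoters and 10 of 153 distal peaks were higher in CD45.1 (2.74% and 10.2% of all peaks of the class), and 0 and 15 in CD45.2 cells (2.27% and 7.48%). The distal calls with the smallest adjusted p were at P4ha2, a collagen prolyl hydroxylase (137 tags in graft and 30.9 in host cells), Epas1, which encodes the related factor HIF-2alpha (58.8 and 6.97), Mxi1, a MYC antagonist (10.9 and 62.4), Plin2, a lipid droplet coat protein (102 and 27.9), and Car9, a carbonic anhydrase (84.6 and 24.7). After LPS, 1 of 35 promoters and 5 of 135 distal peaks were higher in CD45.1 (1.09% and 5.04% of all), and 1 and 2 in CD45.2 cells (1.09% and 2.8%). By adjusted p these were led by Mxi1 (7.85 and 40.0 tags), Epas1 (34.5 and 8.40) and Arg2, the mitochondrial arginase (19.6 and 2.46). Of 134 matched peaks, 26 rose and 9 fell with LPS in CD45.1 (12.5% and 7.41% of all matched peaks) and 22 rose and 7 fell in CD45.2 cells (11.6% and 5.01%).

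Motif letters were counted on both strands in the 200 bp around the centre of each tested peak. Those of the hypoxia core were found in 25 of 38 untreated member promoters (65.8%, against 54.2% of all promoter peaks) and in 41 of 123 distal peaks (33.3% against 27.2%). In the LPS table the shares were 70.7% against 55.7% and 32.7% against 27.8%. AP-1 letters were in 13.8% of untreated and 23.1% of LPS member distal peaks, where all distal peaks had 9.64% and 16.8%, and C/EBP letters in 13.01% and 19.2% against 11.2% and 14.5%. PU.1 letters were in 26.02% and 21.2% against 24.9% and 23.4%, and NF-kappaB letters in 0 of 123 and 0 of 104 against 1.03% and 1.39%. These are descriptions, with no test.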

How the data were processed

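ATAC-seq libraries of sorted CD45.1 and CD45.2 brain macrophages were analysed from merged peak tables. The labels name bcl2fastq 2.17.1.14, Bowtie2, Picard 1.108, HOMER and mm9. The authors deposited estimated counts, HOMER's unnormalised tags per merged peak in steps of 0.5 tag, with peaks merged from 6 libraries per treatment. Peak lists of single libraries were not used. Counts were rounded and peaks with over 10 tags in at least 1 library were fitted with the DESeq2 1.42.0 Wald test (R 4.3.3) over each whole table, with Benjamini-Hochberg adjustment over all tested peaks. For LPS responses and the interaction, 39235 matched peaks were fitted in 12 libraries. edgeR 4.0.16, other scalings, filters, matching and promoter definitions, the mouse as a block and leaving out each library were alternatives. The fits were tested on simulated data. Sequences and annotation came from mm9 and GENCODE. Counting intervals cover counting error only. Groups follow the labels, and replicates are separate mice.

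The members and lists were chosen with earlier results of these data known. Values per library were given for the strongest promoter of 9 genes (Hif1a, Ldha, Hk2, Slc2a1, Pfkfb3, Vegfa, Acod1, Arg1, Nos2) and for called peaks, up to the 15 of smallest adjusted p in each comparison. Other peaks are named to account for members. CD45.1 and CD45.2 cells of 1 number came from the same animal per the series' design. The correlation of their deviations from the group means was 0.141, 0.0590 and 0.0807 in untreated mice 4, 5 and 6 (37204 peaks) and -0.200, 0.0672 and 0.0746 in LPS mice 1, 2 and 3 (20460 peaks). Pairs from different mice had -0.128 to 0.0136 untreated and -0.234 to 0.188 after LPS. The LPS values thus do not show the pairing, and the mouse block rests there on the numbers in the labels.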

Additional observations from a re-analysis of the deposited data

Results flagged for a closer look

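The population by treatment interaction was called at 2 peaks of the genes beyond the members. At the Mxi1 peak at -25865 bp it was 1.73 on the log2 scale (DESeq2 adjusted p = 0.026, 0.0088 with edgeR, 0.35 with the mouse block, up to 0.41 with 1 library left out), with a change with LPS of 1.02 in CD45.1 and -0.70 in CD45.2 cells. At the Plin2 peak at -20364 bp it was -1.58 (DESeq2 adjusted p = 0.0035, 0.0051 with edgeR, 0.073 with the mouse block, up to 0.076 with 1 library left out), with a change of 1.38 in CD45.1 and 2.96 in CD45.2 cells.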

How the results depend on the processing

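No result reversed under any alternative run. The counts below are of members alone, and the shares over all peaks under the alternatives were not counted. In the untreated table, edgeR gave 14 peaks higher in CD45.2 in place of 6, and library totals gave 9 higher in CD45.1 in place of 17, 2 higher in CD45.2 and 2 promoters in place of 6. A mean of at least 20 tags gave 7 higher in CD45.1. With the mouse block, 12 and 4 peaks were called, and the gene sums fell from 10 to 6. In the LPS table, edgeR gave 14 higher in CD45.1 in place of 8, 2 higher in CD45.2 in place of 1, 5 promoters in place of 2 and 9 gene sums in place of 4. Library totals gave 0 higher in CD45.2 and 4 promoters, and a mean of at least 20 tags gave 1 higher in CD45.1 and 1 promoter. The mouse block gave 2, 0 and 0 of these and 1 gene sum. For the LPS response, edgeR gave 9 lower in CD45.1 and 7 lower in CD45.2 in place of 4 each, library totals gave 10 higher in CD45.1 in place of 19, 10 higher in CD45.2 in place of 23, and 0 and 1 lower. edgeR gave 2 interactions in place of 0. No blocked fit of the LPS response was made, since treatments used different mice. The causes were not tested.

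With each library left out, untreated calls ranged from 7 to 14 higher in CD45.1, 3 to 6 higher in CD45.2, 3 to 6 promoters and 6 to 9 gene sums. LPS calls ranged from 1 to 5, 0 to 0, 0 to 2 and 0 to 4. LPS responses ranged from 14 to 21 higher and 1 to 4 lower in CD45.1, and 12 to 23 higher and 1 to 4 lower in CD45.2 cells, and interactions from 0 to 1. No filter, the 25% overlap, the 1 kb promoter definition and width scaling kept each count within 1.5 times. The median of 8 to 35 tags per peak limits what could be detected at weak peaks.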
